A study of Rattus norvegicus with 17 samples.

Results

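Interleukin and tumour necrosis factor genes, with the genes that restrain NF-kB, were examined in the left kidney of rats after partial kidney removal. The 10 genes are the cytokine genes Il1b, Il18, Il6 and Tnf, the interleukin-1 antagonist gene Il1rn, the macrophage growth factor genes Csf1 and Il34, the NF-kB feedback genes Nfkbia and Tnfaip3, and the adhesion gene Icam1. They were picked by gene symbol, and all 10 have a single row per gene file, out of 31195 features with 1 gene name and 126306 features in all. The 17 animals were male Sprague Dawley rats that arrived at 9 weeks of age and ate 0.4% Dyets chow. Surgery took place at 10 weeks of age, and left kidney tissue was taken for RNA 6 weeks after it. In the 1/3Nx group (6 rats) 2/3 of the left kidney was excised and the right kidney stayed in place. The 6 rats of the 5/6Nx group had the right kidney taken out as well, so the left remnant was their only kidney tissue. The 5 sham rats had sham surgery of the left kidney. The labels name no drug and no genetic change, and they do not say from which part of the remnant the tissue came.

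Interleukin-1 beta and interleukin-18 are made as inactive precursors that the inflammasome protease caspase-1 cuts, and the protein of Il1rn occupies the interleukin-1 receptor without signalling. Signals from the interleukin-1 and TNF receptors free NF-kB from its inhibitor IkB-alpha, the product of Nfkbia, and NF-kB then switches on inflammatory genes together with Nfkbia and Tnfaip3, which shut the signal down again. In the kidney, colony stimulating factor 1 and interleukin-34 are the ligands of the macrophage receptor encoded by Csf1r, and tubule cells are a known source of both.

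Each table gives 1 FPKM value per group (fragments per kilobase and per M mapped fragments), so no spread between rats can be set beside a level, and the tests quoted are the authors' own. Library sizes ran from 59.0 to 103.6 M reads in 5/6Nx, from 59.7 to 83.0 in 1/3Nx and from 66.1 to 78.5 in sham. Between 84.8% and 90.1% of reads mapped in sham and 1/3Nx, while 5/6Nx ranged from 62.6% to 90.5%; replicates 3 (62.6%) and 5 (77.2%) of 5/6Nx were the low ones, numbered here in the order the samples are listed. Their part in the 5/6Nx values was not tested. The same sham rats appear at levels 2.01 times higher beside 1/3Nx than beside 5/6Nx (median over 12563 features, with 2.00 to 2.03 for the 10 genes), so levels are compared only within a table. Kidney markers were high: Umod, the uromodulin gene of the thick ascending limb, stood at 2201 FPKM in sham and 1943 FPKM in 1/3Nx, and Slc34a1, the proximal tubule phosphate transporter gene, at 1801 and 1042 FPKM, in the authors' deposited table. In the 5/6Nx table Umod stood at 1098 FPKM in sham and 467 FPKM in 5/6Nx (log2 fold change -1.23, q = 0.454) and Slc34a1 at 899.6 and 799 FPKM (-0.17, q = 0.901), and neither passed, by the authors' deposited table.

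In 1/3Nx, 4 of the 10 genes rose: Il1b, Il1rn, Tnfaip3 and Icam1. A gene is called here when its q in the authors' deposited table is under 0.05. Among all tested features with 1 gene name, 5.70% rose by the same rule (760 of 13326). The 8 tested genes had a median log2 fold change of 0.77 against 0.01 over 11639 named features with a mean of at least 1 FPKM, and 7 of the 8 had higher values than sham, as did 51.1% of those named features. An unadjusted p under 0.05 and a higher value was found for 7 of the 8, against 12.8% of tested named features. Il6 and Tnf were not tested by the authors in either table.

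In 5/6Nx, the authors' deposited table called 0 of the 8 tested genes, with 0 at an unadjusted p below 0.05, and no other tool could be run on group values. There 8.01% of tested named features rose (1158 of 14452), and 10.3% rose at an unadjusted p under 0.05. The authors' q under 0.05 took in p-values of their test up to 0.02895 in 5/6Nx and up to 0.0032 in 1/3Nx. Calls and shares called in the 2 comparisons therefore rest on unlike p-values. The smallest p among the 8 genes was 0.096, for Il1rn. Yet 7 of the 8 again had higher values than sham, with a median log2 fold change of 0.64. Over 11512 named features with a mean of at least 1 FPKM the median was -0.08, and 45.4% were higher than sham. Tnfaip3 lay under that limit in this table but is kept among the 8. The log2 fold change divided by the deposited test statistic, which is larger where a change of a given size counts for less in the test, had a median of 3.60 over the 8 genes in 5/6Nx and 0.70 in 1/3Nx. Over the tested named features with a mean of at least 1 FPKM and a finite, non-zero statistic (11106 and 11623), that ratio was 3.40 and 0.62. The difference between the surgeries was not tested for any gene, and both comparisons use the same sham rats.

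**Figure D1:**
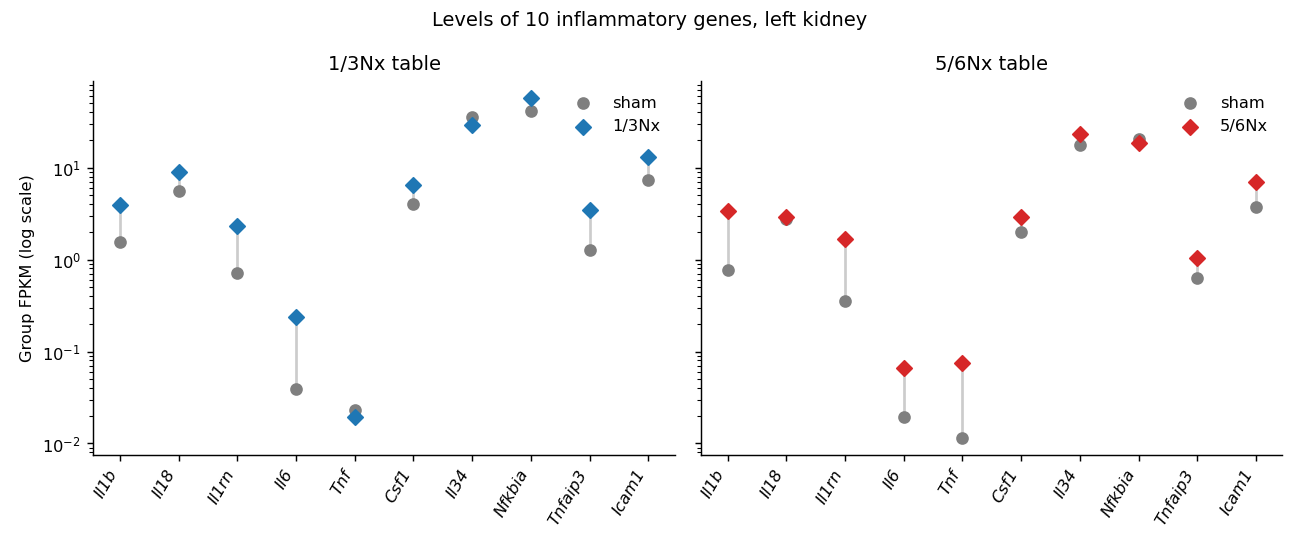
Group FPKM (log axis) of the 10 genes in sham (grey circles) and surgery (coloured diamonds), 1 panel per table, 1 value per group and no error. Nfkbia and Il34 lie highest and Il6 and Tnf lowest in every group, and the sham values of the right panel are lower throughout, as the tables differ in scale.

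**Figure D2:**
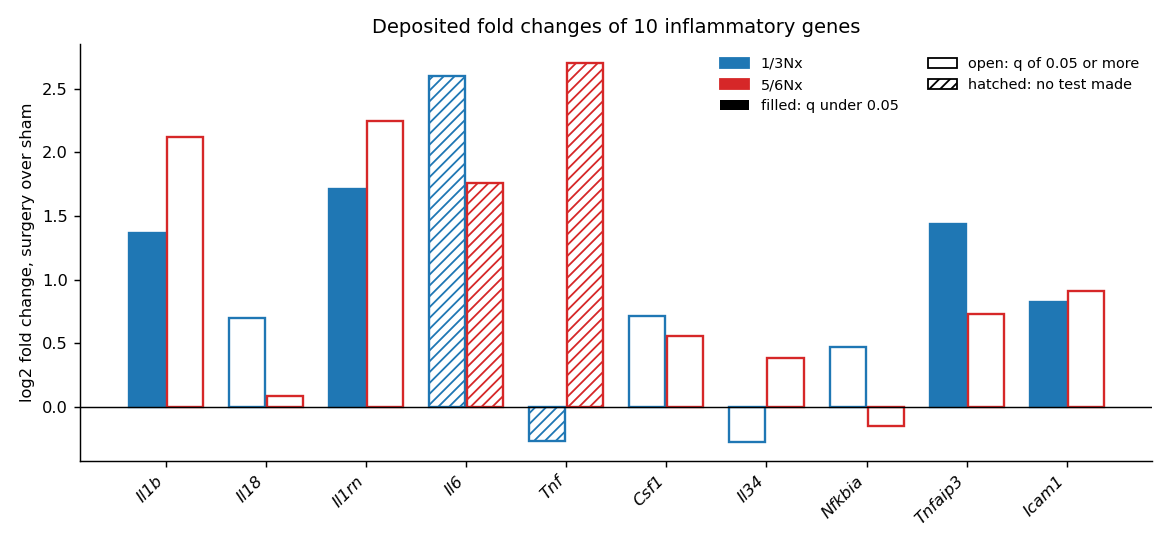
Deposited log2 fold change of each gene, surgery over sham, for 1/3Nx (blue) and 5/6Nx (red); bars start at 0, filled bars have q under 0.05, open bars do not and hatched bars were not tested. Il1b, Il1rn, Tnfaip3 and Icam1 are the filled bars, all in 1/3Nx.

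Both Il1b and its antagonist rose in 1/3Nx. Il1b, the gene of the main secreted interleukin-1, was at 1.54 FPKM in sham and 3.96 FPKM in 1/3Nx (log2 fold change 1.36, q = 0.0294), by the authors' deposited table. Il1rn, its antagonist, went from 0.711 to 2.32 FPKM, a log2 fold change of 1.71 with q = 0.00183, the smallest q that table holds. The 1/3Nx level thus lay above sham for both the agonist and the antagonist, and Il1b exceeded Il1rn by 2.17 times in sham and 1.70 times in 1/3Nx. In the 5/6Nx table Il1b was at 0.769 FPKM in sham and 3.34 FPKM in 5/6Nx (log2 fold change 2.12, q = 0.189), and Il1rn at 0.354 and 1.68 FPKM (2.24, q = 0.156), from the authors' deposited table. Both values lay above the 1/3Nx fold changes without passing, and the ratio of Il1b to Il1rn was 2.17 in that table's sham and 1.99 in 5/6Nx. The authors' deposited table lists Il1b at 121876262 to 121882726 and Il1rn at 1452643 to 1468614, both on chromosome 3.

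Il1r1, the signalling receptor of interleukin-1, rose from 1.25 to 3.00 FPKM in 1/3Nx (log2 fold change 1.27, q = 0.0124), by the authors' deposited table. Its partner chain gene Il1rap went from 2.30 to 3.98 FPKM and did not pass (q = 0.284), from the authors' deposited table. In 5/6Nx neither Il1r1 (log2 fold change 1.77, q = 0.152) nor Il1rap (0.84, q = 0.570) passed in the authors' deposited table.

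Il18, which tubule epithelium also expresses, had a higher level than Il1b and Il1rn in sham and 1/3Nx. Its level was 5.51 FPKM in sham and 8.94 FPKM in 1/3Nx (log2 fold change 0.70, p = 0.0359, q = 0.235), and 2.75 and 2.92 FPKM in the 5/6Nx table (0.08, q = 0.949), in the authors' deposited table. Neither passed. Il18 exceeded Il1b by 3.58 times in sham of either table and by 2.26 times in 1/3Nx, and in 5/6Nx it lay below Il1b, at a ratio of 0.874. The receptor gene Il18r1 rose in 1/3Nx from 0.224 to 0.981 FPKM (a log2 change of 2.13, q = 0.00183), and in 5/6Nx went from 0.112 to 0.623 FPKM without passing (2.48, q = 0.149), in the authors' deposited table. The feature of Il18, at 54965582 to 55016299 on chromosome 8 in the authors' deposited table, overlaps the listed intervals of Bco2 and Tex12. Whether reads were shared between these genes was not tested, and the sources used here do not give the strand setting of the counting.

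Il6 and Tnf had the lowest levels of the 10 genes. Il6, the gene of interleukin-6, was listed at 0.0392 FPKM in sham and 0.238 FPKM in 1/3Nx, and at 0.0193 and 0.0655 FPKM in the 5/6Nx table. Tnf was listed at 0.0234 FPKM in sham and 0.0194 FPKM in 1/3Nx, and at 0.0116 and 0.0754 FPKM in the 5/6Nx table, from the authors' deposited table. All 4 comparisons carry the status NOTEST, which Cuffdiff gives to features with too few alignments. In sham of the 1/3Nx table only 0.683% of the tested named features had a lower level than Il6, and 0.488% a lower level than Tnf. The deposited log2 fold changes of Il6 (2.60 and 1.76) and Tnf (-0.27 and 2.70) rest on these low levels; with 1 FPKM added to both groups they were 0.25 and 0.06 for Il6, and -0.01 and 0.09 for Tnf. The feature of Tnf is listed over 370327 bp of chromosome 20 and overlaps 16 other named features, so its interval is far wider than the gene.

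The receptors for these cytokines were better expressed. Il6st, the shared signal transducer gp130, rose from 10.9 to 20.7 FPKM in 1/3Nx (log2 fold change 0.93, q = 0.00335), and Il6r, the interleukin-6 binding chain, from 0.821 to 1.95 FPKM (1.25, q = 0.0124), in the authors' deposited table. Socs3, a feedback inhibitor of gp130 signalling, rose from 1.14 to 6.08 FPKM (2.41, q = 0.00183) in 1/3Nx and went from 0.568 to 5.44 FPKM in the 5/6Nx table without passing (3.26, q = 0.0778), from the authors' deposited table. Of the TNF receptors, Tnfrsf1b rose in 1/3Nx from 0.723 to 2.33 FPKM (1.69, q = 0.00335), by the authors' deposited table. The far more abundant Tnfrsf1a went from 20.2 to 27.2 FPKM and did not pass (0.43, q = 0.295), from the authors' deposited table. In 5/6Nx none of these 4 receptor genes passed; Il6st was at 0.22, Il6r at 1.29, Tnfrsf1a at 0.87 and Tnfrsf1b at 1.31 on the log2 scale, with q from 0.385 to 0.849, in the authors' deposited table.

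The 2 ligands of the Csf1r receptor differed in level. Il34 stood at 35.5 FPKM in sham and 29.3 FPKM in 1/3Nx (log2 fold change -0.28, q = 0.732), and at 17.8 and 23.1 FPKM in the 5/6Nx table (0.38, q = 0.708), in the authors' deposited table. Csf1 stood at 3.99 FPKM in sham and 6.52 FPKM in 1/3Nx (0.71, p = 0.0138, q = 0.135), and at 1.99 and 2.92 FPKM in the 5/6Nx table (0.55, q = 0.645), from the authors' deposited table. None of the 4 comparisons passed. On this per-length scale Il34 exceeded Csf1 in every group, by 8.91 times in sham and 4.50 times in 1/3Nx, and by 8.95 times in sham and 7.92 times in 5/6Nx in the other table. Their receptor gene Csf1r rose from 6.65 to 15.2 FPKM in 1/3Nx (1.19, q = 0.00183) and went from 3.31 to 6.49 FPKM in the 5/6Nx table without passing (0.97, q = 0.359), in the authors' deposited table. The feature of Il34, at 40855414 to 40925660 on chromosome 19, overlaps the listed intervals of Mtss1l and AABR07043813.1, and sharing of reads with them was not tested. Csf1 is listed at 210522374 to 210550560 on chromosome 2.

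The NF-kB feedback genes differed from each other. Tnfaip3, whose product A20 edits ubiquitin chains to end TNF and interleukin-1 signalling, rose from 1.26 to 3.42 FPKM in 1/3Nx (log2 fold change 1.44, q = 0.00183), by the authors' deposited table. Nfkbia, the gene of IkB-alpha, was the most abundant of the 10 genes in sham and went from 41.2 to 57.1 FPKM in 1/3Nx without passing (0.47, p = 0.0277, q = 0.204), from the authors' deposited table. In the 5/6Nx table Tnfaip3 was at 0.628 and 1.04 FPKM (0.73, q = 0.642) and Nfkbia at 20.5 and 18.5 FPKM (-0.15, q = 0.945), in the authors' deposited table. The level of Nfkbia divided by that of Tnfaip3 was 32.6 in sham and 16.7 in 1/3Nx, and 32.7 in sham and 17.8 in 5/6Nx in the other table; these ratios carry no test. The authors' deposited table lists Tnfaip3 at 14401098 to 14416271 on chromosome 1 and Nfkbia at 76267227 to 76270457 on chromosome 6.

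Icam1, the endothelial and epithelial ligand of leukocyte beta-2 integrins and a known NF-kB target, rose from 7.42 to 13.1 FPKM in 1/3Nx (log2 fold change 0.82, q = 0.0170), by the authors' deposited table. In the 5/6Nx table it was at 3.70 and 6.95 FPKM (0.91, q = 0.528), a fold change of like size that did not pass. Of its integrin receptor chains, Itgal rose from 1.43 to 3.17 FPKM in 1/3Nx (1.15, q = 0.0286), and Itgb2 went from 3.35 to 6.73 FPKM without passing (1.01, q = 0.556), in the authors' deposited table. Itgam, a further alpha chain that pairs with Itgb2, went from 0.236 to 1.42 FPKM in 1/3Nx without passing (2.59, q = 0.106) and from 0.117 to 0.378 FPKM in the 5/6Nx table (1.69, q = 0.196), by the authors' deposited table, and was named after its values were seen. In 5/6Nx neither Itgal nor Itgb2 passed, with log2 fold changes of 0.88 (Itgal, q = 0.454) and 0.21 (Itgb2, q = 0.835), by the authors' deposited table. Icam1 is listed at 22035255 to 22047062 on chromosome 8 in the authors' deposited table.

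Promoters of 8 of the 10 genes are in the RefSeq tables (build GRCr8), which run from 250 bases before to 50 bases after the start. They were searched on both strands for GGNNTTTCC, a form of the NF-kB (kB) site, for the same 9 letters with a further G in front, and for the AP-1 site TGANTCA, which reads alike on both strands. The longer form was found in 4 of 8 promoters (Il1rn, Il6, Nfkbia and Tnfaip3) and in 1.53% of all 33469 promoters of this length. The 9-letter form was found in 5 of 8 (those 4 and Icam1) and in 6.05% of all, and TGANTCA in 2 of 8 (Il18 and Tnfaip3) and in 7.33% of all. A match is only a run of letters, these promoters were seen before the motifs were chosen, and no binding was measured. Il1b, which rose in 1/3Nx, had none of the 3 motifs in this window. The feedback genes, Icam1 and Il1rn are printed because 3 of them rose in 1/3Nx and Nfkbia is the classical NF-kB target that did not pass. They lie at chr1:15543930-15544229 (minus strand), chr6:78597023-78597322 (minus strand), chr8:27829595-27829894 (plus strand) and chr3:27520072-27520371 (plus strand) of GRCr8, and capitals mark matches to GGNNTTTCC on either strand:
Tnfaip3: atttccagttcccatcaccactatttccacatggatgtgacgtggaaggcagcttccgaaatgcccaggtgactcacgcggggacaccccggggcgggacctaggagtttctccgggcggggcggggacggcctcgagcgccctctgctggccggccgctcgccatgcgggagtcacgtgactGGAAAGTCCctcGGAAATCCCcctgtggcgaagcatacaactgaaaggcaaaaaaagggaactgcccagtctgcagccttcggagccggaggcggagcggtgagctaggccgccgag
Nfkbia: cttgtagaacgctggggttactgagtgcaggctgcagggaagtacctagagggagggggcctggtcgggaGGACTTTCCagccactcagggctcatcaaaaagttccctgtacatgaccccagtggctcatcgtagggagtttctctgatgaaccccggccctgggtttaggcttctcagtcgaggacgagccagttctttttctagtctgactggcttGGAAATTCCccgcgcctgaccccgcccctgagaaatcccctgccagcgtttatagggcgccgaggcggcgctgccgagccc
Icam1: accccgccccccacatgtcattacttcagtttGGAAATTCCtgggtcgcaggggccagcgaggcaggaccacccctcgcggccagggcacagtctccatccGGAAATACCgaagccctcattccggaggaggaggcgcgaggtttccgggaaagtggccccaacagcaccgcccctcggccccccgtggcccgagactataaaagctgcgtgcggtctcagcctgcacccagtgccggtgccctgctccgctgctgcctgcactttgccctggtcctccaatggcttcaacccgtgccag
Il1rn: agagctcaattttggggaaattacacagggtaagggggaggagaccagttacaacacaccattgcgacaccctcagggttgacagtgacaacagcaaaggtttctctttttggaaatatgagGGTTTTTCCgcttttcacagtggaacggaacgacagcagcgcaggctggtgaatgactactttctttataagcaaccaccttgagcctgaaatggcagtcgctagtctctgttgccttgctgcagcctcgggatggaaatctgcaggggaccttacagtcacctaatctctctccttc

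Tnfaip3 held 2 matches to the 9-letter form, starting 67 and 55 bases before the start, and both were also matches to the longer form. Nfkbia held 2 matches, of which the one 31 bases before the start was also a match to the longer form. Icam1 held 2 matches of the 9-letter form alone, and Il1rn held 1 that matched both forms.

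Transcript rows gave a different picture of some genes. The isoform tables hold 12 annotated transcripts named for the 10 genes, and 17 more transcripts that were assembled from the reads and carry the gene ID of 6 of them. By the authors' deposited table, 1 of 7 tested annotated transcripts passed in 1/3Nx, that of Icam1 (log2 fold change 0.87, q = 0.0277), against 2.30% of tested named transcripts that rose. In 5/6Nx 0 of 6 passed, and 0 had an unadjusted p under 0.05, where 5.20% of tested named transcripts rose. Among the assembled transcripts 1 of 12 tested passed in 1/3Nx, that of Tnfaip3 (1.42, q = 0.00490), and 0 of 10 in 5/6Nx with 0 at an unadjusted p under 0.05. Of all tested assembled transcripts with the gene ID of a named gene, 0.366% rose in 1/3Nx (63 of 17212) and 0.615% in 5/6Nx (97 of 15767). The transcript of Il1b is its only one, and its q was 0.0775 in the 1/3Nx isoform table. More features are tested there than in the gene table, and 2.30% of tested named transcripts rose against 5.70% of named features.

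For Tnfaip3 nearly the whole value came from an assembled transcript, which held 99.4% of the gene's FPKM in sham and 98.6% in 1/3Nx. For Il34 the 10 assembled transcripts held 97.3% in sham and 99.7% in 1/3Nx, and 97.4% in sham and 88.3% in 5/6Nx in the other table. The annotated Il34 transcript there was at 0.469 FPKM in sham and 2.70 FPKM in 5/6Nx (log2 fold change 2.52, q = 0.637), by the authors' deposited table. The assembled Il34 transcripts were led by MSTRG.51637.10 at 22.8 FPKM in sham and 13.0 FPKM in 1/3Nx (log2 fold change -0.81, q = 0.950), by the authors' deposited table. For Il18 the annotated transcript held 73.4% of the gene in sham and 46.6% in 1/3Nx, and 73.5% in sham and 11.1% in 5/6Nx in the other table. Its own level was 4.05 FPKM in sham and 4.16 FPKM in 1/3Nx (0.04, q = 0.999), and it was 2.02 and 0.322 FPKM in the 5/6Nx table (-2.65, q = 0.455), in the authors' deposited table. The assembled transcript MSTRG.102509.3 of Il18 was at 1.14 FPKM in sham and 3.72 FPKM in 1/3Nx (1.70, q = 0.883), and at 0.570 and 2.36 FPKM in the 5/6Nx table (2.05, q = 0.309), from the authors' deposited table. None of these Il34 and Il18 transcripts passed, so their shares are descriptions. The annotated transcript of Il1rn made up 13.0% of the gene in sham, 43.3% in 1/3Nx and 2.68% in 5/6Nx. Its level went from 0.0922 to 1.01 FPKM in 1/3Nx without passing (q = 0.638). In 5/6Nx it was at 0.0449 FPKM against 0.0459 FPKM in sham and was not tested. The assembled Il1rn transcript did not pass in either comparison (q = 0.745 in 1/3Nx and 0.195 in 5/6Nx), so these shares are descriptions too.

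**Figure D3:**
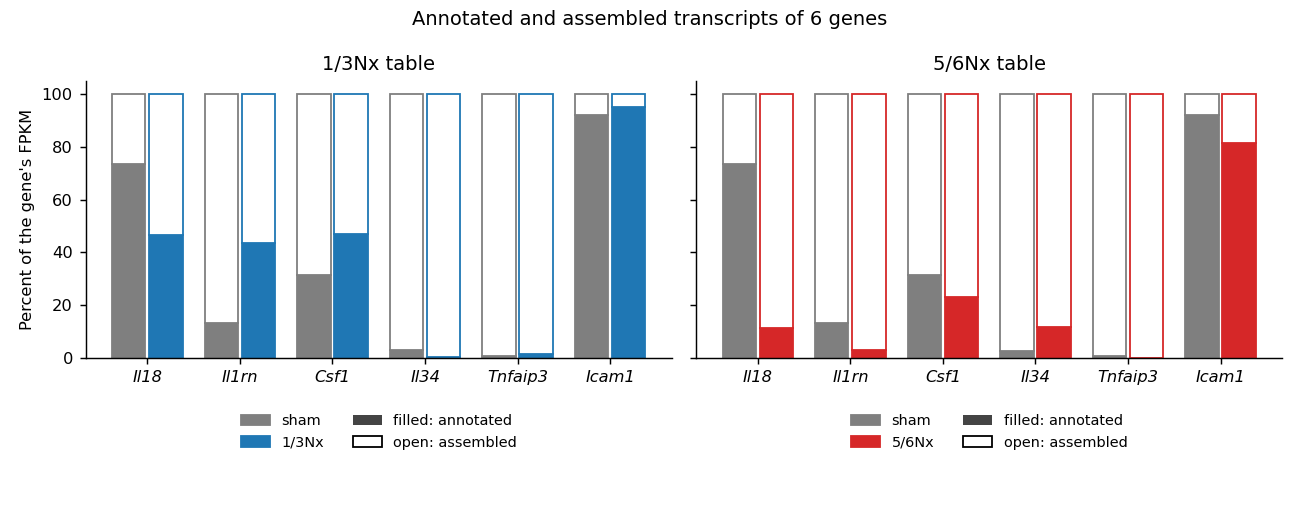
Share of each gene's FPKM (percent, axis from 0) held by annotated (filled) and assembled (open) transcripts in sham (grey) and surgery (coloured), for the 6 genes with both kinds. Assembled transcripts hold 98.6% or more of Tnfaip3 in every group and 88.3% of Il34 or more, and the annotated share of Il18 is 73.4% in sham against 46.6% in 1/3Nx and 73.5% against 11.1% in 5/6Nx.

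The rest of the pathway was read from 9 lists with 140 genes, of which 133 have a feature of their own and 3 share one with another gene. In 1/3Nx, 28 of 111 tested genes rose and 0 fell, where 5.70% of tested named features rose and 2.63% fell. The median log2 fold change was 0.45 over 94 tested genes with a mean of at least 1 FPKM. In 5/6Nx, 7 of 108 rose and 0 fell, where 8.01% of tested named features rose and 0.0900% fell, so the share of risers was near the background, and the median was 0.24 over 81 genes. With q-values recomputed over features with 1 gene name, 29 rose and 1 fell in 1/3Nx (6.33% and 2.98% of all tested named features), the fall being Sigirr (log2 fold change -0.79), an inhibitor of interleukin-1 receptor signalling, and 2 rose and 0 fell in 5/6Nx (4.08% and 0.0138%). Sigirr was named after its values were seen.

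Among interleukin-1 family genes 4 of 6 tested rose in 1/3Nx. For each list counted here, the share of all tested named features that rose was 5.70%. Il1rl1, the receptor of interleukin-33, rose by 2.29 on the log2 scale (q = 0.00183) and Il33, the alarmin it binds, by 0.66 (q = 0.0429) to 83.6 FPKM, in the authors' deposited table. The interleukin-6 family had 5 risers of 12, with the oncostatin M receptor gene Osmr at 1.63 (q = 0.00183) and the leukaemia inhibitory factor gene Lif at 1.39 (q = 0.00335), by the authors' deposited table. In the TNF superfamily list 3 of 18 rose: Tnfrsf12a, the receptor of TWEAK (1.41, q = 0.00183), the death receptor gene Fas (1.60, q = 0.0225) and Tnfrsf1b, from the authors' deposited table. Of the colony stimulating factor list 1 of 4 rose, Csf1r.

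None of 15 NF-kB subunit and kinase genes passed in 1/3Nx, where 5.70% of all tested named features rose and 2.63% fell. An unadjusted p under 0.05 in the authors' test was found for 2 of the 15. Of all tested named features 12.8% rose at that p. Values of 13 of the 15 were higher than in sham. Their median log2 fold change was 0.20, against 0.01 over named features with a mean of at least 1 FPKM. Rela, the gene of p65, was at 19.1 and 20.2 FPKM (log2 fold change 0.08, q = 0.891), and Nfkb1, the gene of p50, at 10.2 and 15.0 FPKM (0.56, q = 0.131), in the authors' deposited table; both were named after their values were seen. Of 21 other feedback genes 5 rose. Birc3, a ubiquitin ligase of the TNF receptor complex, rose from 1.46 to 6.56 FPKM (2.16, q = 0.00183), Nfkbiz, an atypical IkB gene, from 1.43 to 4.19 FPKM (1.55, q = 0.00183) and Ier3 from 35.9 to 70.2 FPKM (0.97, q = 0.00183), from the authors' deposited table.

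The inflammasome list had 1 riser of 12 in 1/3Nx, Nlrp1a (0.96, q = 0.0404), in the authors' deposited table, where 5.70% of all tested named features rose. An unadjusted p under 0.05 in the authors' test was found for 7 of the 12, all with higher values than sham. Of all tested named features 12.8% rose at that p. The median log2 fold change was 0.55 over 8 genes of the list with a mean of at least 1 FPKM. Casp1, the gene of the protease that matures interleukin-1 beta and interleukin-18, went from 4.74 to 10.1 FPKM and missed the threshold (1.09, q = 0.0538), and was named after its values were seen. With q recomputed over named features Casp1 passed (q = 0.0414), and the list then had 2 risers of 12. Of 12 adhesion genes 4 rose, among them Vcam1 (1.55, q = 0.00183), another endothelial ligand of leukocyte integrins, and Selplg (1.41, q = 0.00471), the selectin ligand of leukocytes, in the authors' deposited table. Of 11 Toll-like receptor genes and adapters 5 rose, such as Lbp (2.02, q = 0.00183) and Cd14 (1.31, q = 0.00183), which hand endotoxin to the receptor, and Tlr7 (1.46, q = 0.0218), a sensor of RNA, from the authors' deposited table.

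In 5/6Nx the 7 genes that rose included Nfkbiz, from 0.712 to 4.27 FPKM (log2 fold change 2.58, q = 0.0185), Pycard, the inflammasome adapter ASC, from 5.80 to 31.2 FPKM (2.42, q = 0.0255), and Selplg (2.24, q = 0.0364), in the authors' deposited table. Tnfsf13b, the gene of the B cell factor BAFF, went from 1.13 to 90.9 FPKM (6.33, q = 9.2e-05) and Chuk, the kinase gene IKK-alpha, from 8.79 to 259 FPKM (4.88, q = 0.000272), from the authors' deposited table. These last 2 are the genes that also passed after recomputing over named features. Assembled transcripts that were close to 0 in sham held most of the 5/6Nx level: MSTRG.11387.4 held 98.0% of the Chuk value in 5/6Nx and 0.0446% in sham. For Tnfsf13b, MSTRG.42215.4 and MSTRG.42215.3 held 66.0% and 32.1% of the value in 5/6Nx and 1.04% or less in sham. None of these 3 transcripts passed in the authors' deposited isoform table, with q from 0.386 to 0.589. Assembled transcripts also gained share in Pycard, Selplg and Nfkbiz. MSTRG.8451.4 held 49.5% of Pycard in 5/6Nx and 6.5e-05% in sham (q = 0.503). MSTRG.24982.7 held 80.2% of Selplg in 5/6Nx and 33.6% in sham (q = 0.283). For Nfkbiz, MSTRG.20153.2 held 66.7% in 5/6Nx and 23.3% in sham and passed (q = 0.0326). The annotated Nfkbiz transcript did not pass (q = 0.396). The other 2 risers, Il1f10 (listed at 0 in sham and 0.599 FPKM in 5/6Nx) and Tlr9 (2.91, q = 0.0452), stayed under 1 FPKM in the authors' deposited table and were named after their values were seen.

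**Figure D4:**
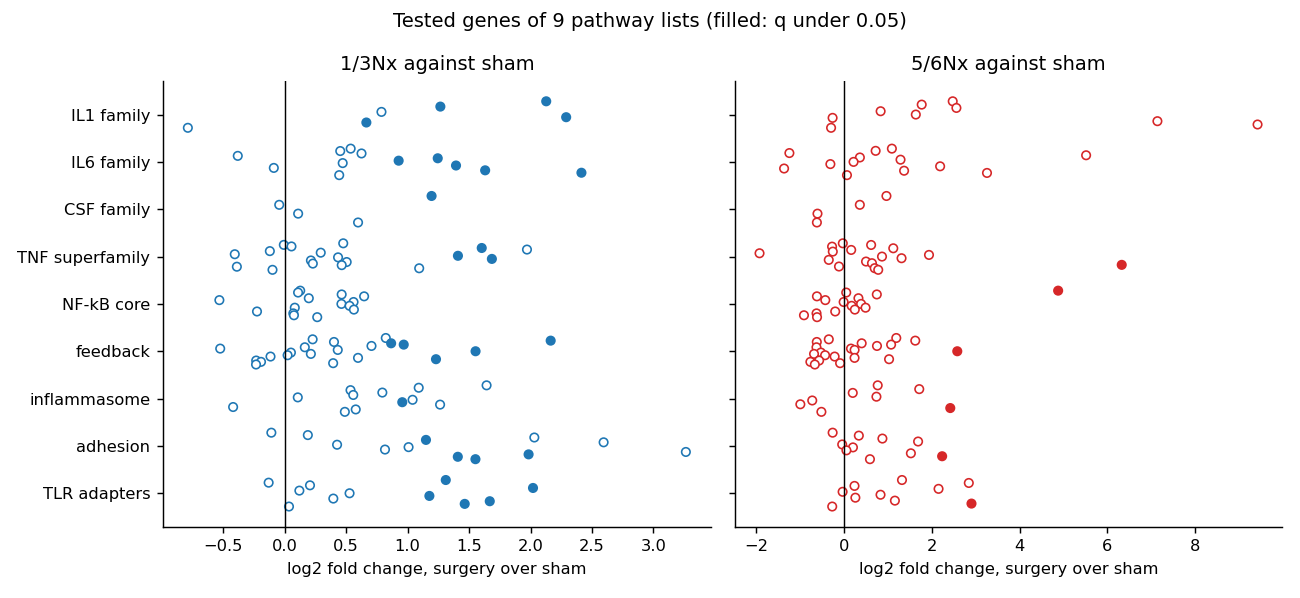
Log2 fold change, surgery over sham, of every tested gene in the 9 lists (1 point per gene, filled where q is under 0.05; the panels have different horizontal scales, and a gene listed at 0 in a group is not drawn). In 1/3Nx 28 of 111 genes are called, all above 0 and none of them among the 15 of the NF-kB core list. In 5/6Nx 7 of 108 are called. Of all tested named features 5.70% rose in 1/3Nx and 8.01% in 5/6Nx.

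Markers of some other cell types also differed from sham. Beside the counts below, 5.70% of all tested named features rose and 2.63% fell in 1/3Nx. In 5/6Nx 8.01% rose and 0.0900% fell. In 1/3Nx 8 of 10 macrophage markers rose and their summed level was 306 FPKM in sham and 813 FPKM in 1/3Nx; 4 of 9 T and NK cell markers rose (16.6 and 46.5 FPKM), as did 1 of 3 tested B cell markers (1.31 and 4.26 FPKM). All 4 tested fibroblast markers rose (58.4 and 210 FPKM), and 1 of 6 endothelial markers rose (112 and 137 FPKM). Of 2 tested neutrophil markers 0 passed (4.06 and 7.94 FPKM), with Elane at 0 in both groups. Lyz2 made up most of the macrophage sum (223 and 630 FPKM) and Dcn most of the fibroblast sum (49.7 and 170 FPKM). Both also made up most of these sums in the 5/6Nx table, and both were named after their values were seen. In 5/6Nx 0 of 10 macrophage markers passed (153 and 381 FPKM), 1 of 8 tested T and NK cell markers rose (8.27 and 57.4 FPKM), and 0 of 5 tested fibroblast markers passed (29.1 and 75.9 FPKM). The T and NK cell marker that rose was Klrd1, a receptor gene of NK cells, at 0.283 and 34.2 FPKM. It did not pass with q recomputed over named features (q = 0.167), and without it, a choice made after its values were seen, the list summed to 7.99 FPKM in sham and 23.2 FPKM in 5/6Nx. Of 6 endothelial markers 0 passed in 5/6Nx, and their summed level was 56.0 FPKM in sham and 51.6 FPKM in 5/6Nx. B cell markers summed to 0.653 and 1.80 FPKM and neutrophil markers to 2.02 and 3.92 FPKM there, with 0 of 2 tested passing in either list. Of 7 proximal tubule markers 1 fell in 1/3Nx (4671 and 3159 FPKM) and 0 passed in 5/6Nx (2329 and 1888 FPKM). Of 7 tested exocrine pancreas markers 7 rose in 1/3Nx and 3 in 5/6Nx: their summed level was 1.32 FPKM in sham and 604 FPKM in 1/3Nx, and 0.658 and 428 FPKM in the 5/6Nx table. The part of these cells in the values of the 10 genes was not tested. In such bulk samples fewer or more cells of a type and less or more RNA per cell cannot be told apart.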

How the data were processed

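Total RNA from the left kidney of 17 rats was sequenced, and the authors deposited for each surgery a comparison with sham at the level of genes and of isoforms. Per the submitters' processing notes the tools were cutadapt, FastQC, TopHat2 2.1.1, StringTie and Cufflinks 2.2.1 with build rn5; roles are not given, and some sequence names belong to a later assembly, so the build behind the printed positions is not settled. Per the file headers the authors deposited FPKM group values, a log2 fold change, and p-values with q-values for each feature; the layout is that of Cuffdiff. The authors also deposited read counts per library and the percent of reads mapped. At the gene level 628 rows per file with several names were shifted to the right and were realigned; features with several names or a date as name were left out of the named features.

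Samples were grouped by the labelled surgical model. The authors' q under 0.05 was the threshold. Recomputing q-values by Benjamini-Hochberg from the deposited p-values over all tested features differed from the deposited q by at most 5.25e-07, and the method was tested on simulated data. No test across rats was possible on group values, and the precision that depth gives to a level cannot be stated. Named genes were the 10 genes, a list of 10 receptor genes for their products and up to 3 called genes per list and table, by smallest p, where either group reached 1 FPKM. The genes and lists were chosen with earlier results of these data known. Alternatives were q recomputed over named features, a filter at a mean of 1 FPKM, other q thresholds, pseudocounts of 0.1 and 1, centring and isoform rows. The labels speak of small RNA libraries and name a stranded total RNA kit, which is not settled here. Python 3.11.15, pandas 2.3.3 and matplotlib 3.10.9 were used.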

Additional observations from a re-analysis of the deposited data

Results flagged for a closer look

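The library of 5/6Nx replicate 5 held 104 M reads, against 73.0 M reads in the next largest of the 6 libraries of its group. The gap made up 0.685 of the group's range, above the limit of 0.625 for 6 samples; chance alone gives such a gap in about 5% of groups, and 6 sets of values were looked at. This library also mapped at 77.2%. The expression tables hold group values, so its part in the 5/6Nx levels of the 10 genes was not tested.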

How the results depend on the processing

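The number of the 10 genes passing in 1/3Nx was 4 with q recomputed over named features, with the 1 FPKM filter, at q under 0.10 and with the row of smallest p, and 2 (Il1rn and Tnfaip3) at q under 0.01. In 5/6Nx it was 0 under all of these. Annotated transcripts passing in 1/3Nx numbered 1, and 2 with q recomputed over named isoforms, 2 with the 1 FPKM filter added, and 2 with assembled transcripts counted too, an alternative chosen after seeing the data. In 5/6Nx the pathway count of 7 became 2 with q recomputed over named features, 2 with the 1 FPKM filter added and 11 at q under 0.10, while the 1/3Nx count stayed within 1.5 times. Read from the transcript with the highest mean FPKM, Il1b (q = 0.0775) and Il1rn (log2 fold change 1.09, q = 0.745) no longer passed in 1/3Nx. For Il1b the log2 fold change (1.36) and the p of the authors' test (0.00155) are the same for the gene and its transcript. Its q over named isoforms was 0.0416. The q of Il1b thus differed through the adjustment, which depends on the number of tests and on the other p-values. For Il1rn the cause was not tested. No sign changed under a pseudocount of 0.1 or 1 or centring on the median. No paired analysis was possible because the tables hold group values and the replicate numbers used here only follow the order in which the samples are listed; since there are only group values, leaving out each library in turn was not run, and so the 5/6Nx values could not be given without replicates 3 and 5.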
